A study of Danio rerio with 9 samples.

Results

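The genes described here encode the enzymes that attach a sugar or a sulfate group to small molecules in the zebrafish kidney. They were taken from the gene table as the rows whose symbol begins with *ugt* and a digit from 1 to 8, or with *sult* and a digit from 1 to 9. The rule found 51 of 30628 genes, 31 *ugt* and 20 *sult*. RNA was sequenced from kidneys of wild-type WIK fish, a laboratory strain, at 12 months of age, without treatment, in 4 male and 5 female libraries. The labels give tissue, genotype and sex, and the methods speak of sets of kidneys without saying how many fish a library holds. The p-values therefore measure the spread between these libraries. Within each sex, counts differed between libraries by far more than random sampling of reads gives. Chi-square divided by its degrees of freedom ran from 82.5 for M1 with M2 to 266 for F4 with F6. How much of this spread is between fish and how much is technical was not tested. Males are M1, M2, pkd1M1 and pkd1M4, and females are F1, F2, F3, F4 and F6. The column names of pkd1M1, pkd1M4 and F6 give the sex but match no single labelled sample, and no label carries the number of F6. The column names of pkd1M1 and pkd1M4 carry pkd1 beside the abbreviation for wild type, so values without these libraries are given for each called member.

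UDP-glycosyltransferases sit in the membrane of the endoplasmic reticulum and transfer a sugar, most often glucuronic acid from UDP-glucuronic acid, to lipid-soluble compounds. In mammals, UGT1 enzymes act on bilirubin and phenols, UGT2 enzymes act on steroids and many drugs, and UGT8 adds galactose to ceramide. The *ugt5* family is found in fish and not in mammals. Cytosolic sulfotransferases transfer sulfate from the donor PAPS. Enzymes of the SULT1 family act mainly on phenols, including estrogens and thyroid hormones, and those of the SULT2 family on hydroxysteroids. Conjugates are more soluble than the parent compound, and tubule cells of the kidney, like hepatocytes, pass them on through export pumps.

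Total counts per library ranged from 24902978 to 52986838. Each deposited value was read as a gene's estimated count. The column names call the values scaled TPM and the methods call them length-scaled, which differ in whether gene length is kept. Levels are given here as CPM, the counts scaled to a common library size with edgeR's TMM factors. The sexes were compared gene by gene with the quasi-likelihood test in edgeR, and each edgeR adjusted p below is from it after Benjamini-Hochberg adjustment. Called genes pass both limits, an adjusted p under 0.05 and a log2 fold change beyond 1.5 in either direction, where values above 0 mean a higher level in males. Low values of very short genes were close to those of longer genes (median of the lowest value above 0 of 2 for 21 genes spanning up to 150 bases, and of 3 for 453 genes spanning 1200 to 2500 bases), so the values were not read as per length and levels are not ranked between genes. All 10 proximal tubule markers were tested and edgeR called none with all libraries, although 4 were higher in males at an unadjusted p under 0.05. DESeq2 called 2 higher in males. So did edgeR without F6, or with at least 10 counts required in every library, and it called 3 with only M1, M2, F1 and F2. The 10 markers summed to 2118 to 3043 CPM in males and 1185 to 3587 CPM in females. The 6 matched markers of the distal tubule and duct summed to 733 to 1317 CPM in males and 300.3 to 744 CPM in females, and 2 of them were called higher in males by edgeR and by DESeq2 (1 to 4 by edgeR with a library left out, 1 without F1, F3, F4 or pkd1M4). Myeloid markers summed to 2813 to 5245 CPM in males and 4533 to 7634 CPM in females, with 2 of 8 called higher in females by edgeR and by DESeq2. Of 9 lymphoid markers edgeR called 1 higher in females (none without F2, pkd1M1 or pkd1M4) and DESeq2 called 3. All 9 were lower in males, 7 of them at an unadjusted p under 0.05 (edgeR, 5 to 8 with a library left out). Intestine markers summed to 153 to 278 CPM in males and 58.1 to 117 CPM in females, without overlap, and 1 of 3 tested, *fabp2*, was called higher in males by both tools but not by edgeR without pkd1M4. This sum was mostly *vil1*, with counts of 3564 to 12507 in males and 1784 to 3455 in females. Counts of *fabp2* were at most 1405 in any library. Those of *cdx1b* were 65 to 161, those of *apoa4a*, *apoa4b.1* and *apoa4b.2* at most 110, and those of *fabp6* 0 in all libraries. Whether the sum reflects RNA of intestine was not tested. Liver markers were present in all libraries, from 179.5 to 1975 CPM in males and from 328 to 1321 CPM in females. With all libraries edgeR called none of 13 tested (2 higher in males and 1 in females at an unadjusted p under 0.05). It called 1 in each direction without F2, and 1 higher in females without F4, F6, M1, M2 or pkd1M4. DESeq2 called 1 higher in males and gave no p-value for 5 of the 13. Of the 13, 10 were higher in males and 3 in females. *tfa* had 176 to 949 CPM in females, 741 CPM in pkd1M4 and at most 11.4 CPM in the other males. *apoa2* had 55.7 to 501 CPM in males and 1.18 to 67.0 CPM in females. Oocyte markers summed to 2544 CPM in F1, to at most 105 CPM in the other females and to at most 6.07 CPM in males. Of 9 tested oocyte markers edgeR called 4 higher in females, and none without any one of the males (7 at an unadjusted p under 0.05 in each). DESeq2 gave no p-value for 8 of these 9 and did not call the other.

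Of the 51 genes, 36 passed the filter on low counts, 20 *ugt* and 16 *sult*. Of these, 4 were called higher in males, namely *sult2st1*, *sult2st2*, *sult1st3* and *ugt8*, and 2 higher in females, *ugt5g1* and *sult5a1*. That is 16.7% of the tested members, where 6.54% of all 22148 genes tested were called. By direction, 3.48% of all genes tested were called higher in males and 3.06% higher in females. The *sult* genes had 3 calls in males and 1 in females, and the *ugt* genes 1 in each sex. The median log2 fold change was 0.61 over the tested *sult* genes and -0.09 over the tested *ugt* genes, beside -0.03 over all genes tested. The rule uses names only, but the group was chosen with earlier results of these data known, and the filter passes a gene more readily when it is high in one sex. In bulk RNA, fewer cells of a type and less RNA per cell cannot be told apart. Each of these 6 calls held with any single library left out, and those of *sult1st3* and *ugt8* held with M1 and M2 as the only males. In fits of M1, M2, F1 and F2 alone *ugt8* kept its call and *sult1st3* did not.

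**Figure D1:**
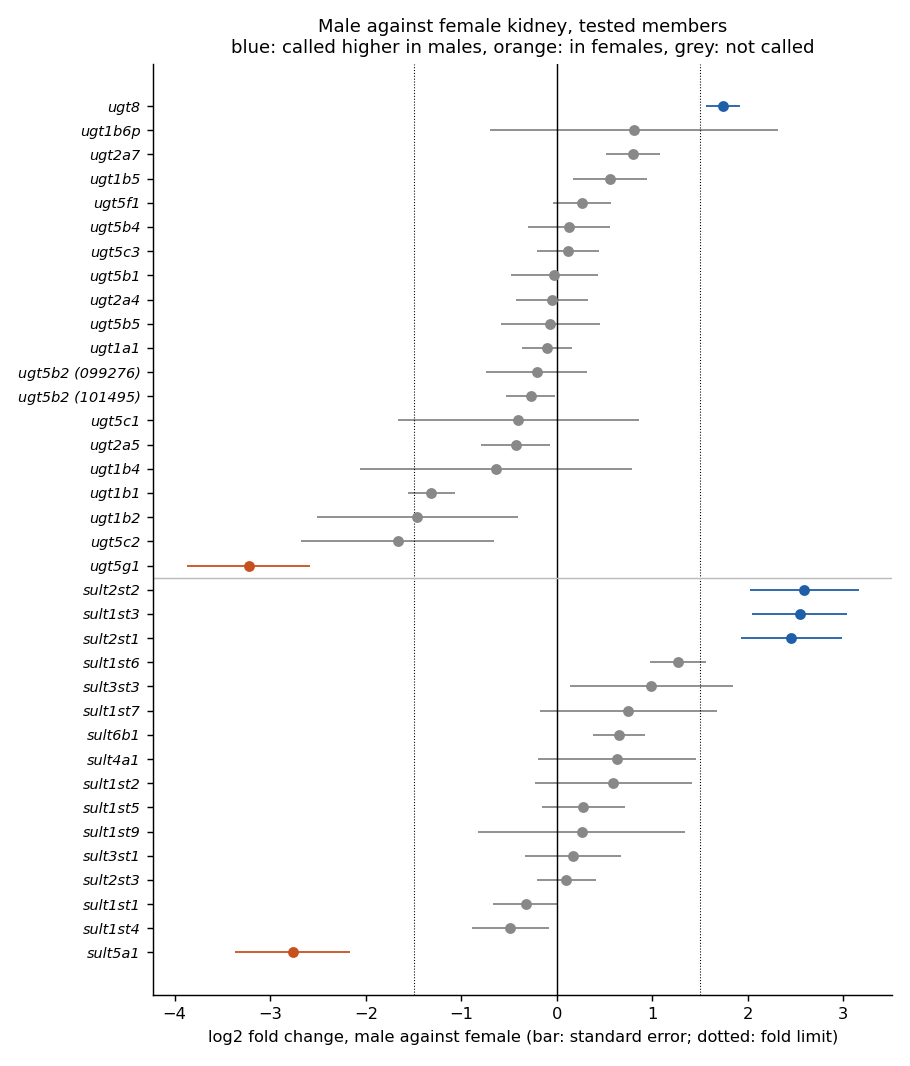
Log2 fold change of male against female kidney for the 36 tested genes, with *ugt* genes above the grey line and *sult* genes below it, bars giving the standard error and dotted lines the fold change limit. The 4 blue points lie right of the limit, the 2 orange points lie left of it, and the grey points were not called.

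The hydroxysteroid sulfotransferase genes *sult2st1* and *sult2st2* are neighbours on chromosome 12, from 630295 to 645972 and from 648334 to 656540, with 2361 bases between them. In males *sult2st1* (ENSDARG00000033170) had 884, 93.1, 1044 and 830 CPM in M1, M2, pkd1M1 and pkd1M4. In females it had 83.1, 143, 139, 170.2 and 115 CPM in F1, F2, F3, F4 and F6. Library M2 thus fell among the females, while the other males lay far above every female. Males averaged 713 ± 423 CPM (SD, n = 4) and females 130.2 ± 32.7 CPM (SD, n = 5). The sexes differed by a log2 fold change of 2.45 (standard error 0.53, edgeR adjusted p = 0.0134).

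For *sult2st2* (ENSDARG00000103785) the males had 83.3, 7.60, 50.8 and 80.1 CPM in M1, M2, pkd1M1 and pkd1M4. The females had 4.48, 10.2, 11.6, 13.0 and 6.75 CPM in F1, F2, F3, F4 and F6. Again M2 was the only male within the female range. This gave a log2 fold change of 2.59 (standard error 0.57, edgeR adjusted p = 0.0148). Counts of *sult2st1* were 10.4 to 20.5 times those of *sult2st2* in males and 12.0 to 18.5 times in females, so the ranges of this ratio overlapped. Reads shared by these related genes may have been divided between them by estimation, so their values are not fully separate measurements. Without M2 the log2 fold changes were 2.82 for *sult2st1* and 2.95 for *sult2st2*. With M1 and M2 as the only males they were 1.91 and 2.30, and neither gene was called (edgeR adjusted p = 0.145 and 0.124). The markers of the interrenal, the steroid-producing tissue within the fish kidney, summed to 11.4, 463, 977 and 27.1 CPM in M1, M2, pkd1M1 and pkd1M4. In females these markers summed to 54.3 to 244 CPM, above M1 and pkd1M4. M2, the lowest male in *sult2st1*, was not the lowest in these markers. The highest male in *sult2st1* and in the markers was pkd1M1, while in *sult2st2* M1 and pkd1M4 were above it. Whether the markers bear on the *sult2* genes was not tested. The third member, *sult2st3* on chromosome 16, had 8.10 to 20.5 CPM in males and 9.84 to 17.0 CPM in females. That is a difference of 0.10 on the log2 scale (standard error 0.31).

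The phenol sulfotransferase gene *sult1st3* (ENSDARG00000018361) lies on chromosome 8 from 46559332 to 46581448. It had 665, 223, 227 and 125 CPM in M1, M2, pkd1M1 and pkd1M4. Females had 27.4, 55.6, 75.4, 30.6 and 76.9 CPM in F1, F2, F3, F4 and F6. Every male was above every female, a separation seen in 16.5% of all genes tested, and M1 stood above the other males. Between the sexes the log2 fold change was 2.54 (standard error 0.50, edgeR adjusted p = 0.00831). It was 1.85 without M1 (edgeR adjusted p = 0.0181) and 3.06 with M1 and M2 as the only males (edgeR adjusted p = 0.0198).

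The other 4 members of this group share this stretch of chromosome 8, which runs from 46447061 to 46581448. None of *sult1st1*, *sult1st2*, *sult1st7* and *sult1st9* was called, with log2 fold changes from -0.33 for *sult1st1* to 0.75 for *sult1st7*. The males had 9.49, 26.4, 20.4 and 10.5 CPM of *sult1st1*, in the order M1, M2, pkd1M1 and pkd1M4, and the females 15.1, 25.7, 27.6, 16.9 and 19.5 CPM from F1 to F6. In *sult1st2* the males had 2.99, 31.1, 35.9 and 8.80 CPM and the females 7.18, 4.68, 8.50, 3.94 and 41.2 CPM in the same order. M1, the highest male in *sult1st3*, was thus the lowest in *sult1st1* and *sult1st2*. F6 stood above the other females in *sult1st2*, and the sexes overlapped in both genes.

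The gene *ugt8* (ENSDARG00000037455), whose mammalian counterpart makes galactosylceramide, a lipid of myelin and of kidney epithelium, lies on chromosome 1 from 20556067 to 20593778. It had 38.7, 48.5, 39.7 and 53.2 CPM in M1, M2, pkd1M1 and pkd1M4. Females had 11.9, 12.2, 16.0, 12.7 and 14.6 CPM in F1, F2, F3, F4 and F6. The sexes were far apart and the libraries of each sex close together. The log2 fold change of 1.74 had the smallest standard error of the 36 tested members, 0.18 (edgeR adjusted p = 0.000416). It was 1.69 with M1 and M2 as the only males (edgeR adjusted p = 0.0100), and *ugt8* passed the thresholds in all 18 alternative fits.

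The *ugt5* gene *ugt5g1* (ENSDARG00000032862), on chromosome 7 from 22688781 to 22696987, was higher in females. Females had 158, 44.6, 31.3, 98.9 and 276.7 CPM in F1, F2, F3, F4 and F6. Males had 20.1, 13.8, 11.5 and 6.74 CPM in M1, M2, pkd1M1 and pkd1M4. The sexes did not overlap, although the females spread widely. In *ugt5g1* the log2 fold change was -3.23 (standard error 0.65, edgeR adjusted p = 0.00936), the largest in size among the tested members. F1 and F6, the highest libraries for *ugt5g1*, had summed oocyte markers of 2544 and 5.71 CPM. With M1 and M2 as the only males the log2 fold change was -2.85 and the gene was not called (edgeR adjusted p = 0.129). The other tested *ugt5* genes had log2 fold changes from -1.66 for *ugt5c2* to 0.26 for *ugt5f1*, and none was called.

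The gene *sult5a1* (ENSDARG00000007769), on the same chromosome from 56602521 to 56606752, was also higher in females. It had 19.6, 51.0, 25.9, 31.8 and 8.75 CPM in F1, F2, F3, F4 and F6. Males had 5.42, 7.10, 1.35 and 2.30 CPM in M1, M2, pkd1M1 and pkd1M4. The sexes did not overlap, with F6 just above M2, so F6 was the lowest female here and the highest in *ugt5g1*. The test gave a log2 fold change of -2.77 (standard error 0.60, edgeR adjusted p = 0.0142). With M1 and M2 as the only males it was -2.13 and the gene was not called (edgeR adjusted p = 0.113). Because every library named with pkd1 is male, the effect of that name and of sex can be told apart only through M1 and M2.

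**Figure D2:**
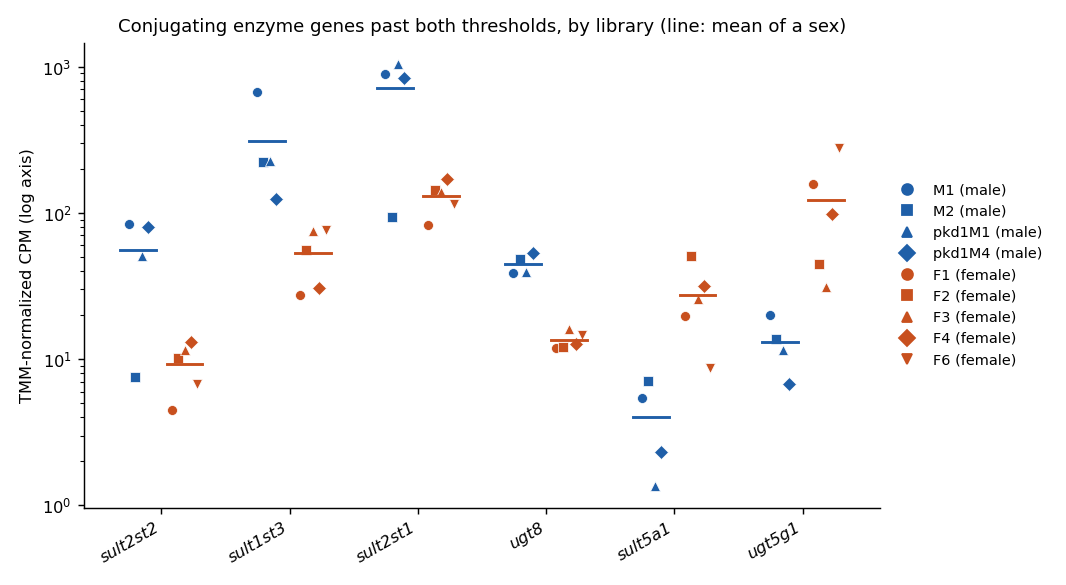
TMM-normalized CPM on a log axis of the 6 genes past both thresholds in each male (blue) and female (orange) library, with lines at the mean of each sex. M2 lies among the females in *sult2st1* and *sult2st2*, and the sexes are separate in the other 4 genes.

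Summed over the family, the *sult* genes had 1937, 606, 1591 and 1296 CPM in M1, M2, pkd1M1 and pkd1M4. The female sums were 288, 463, 460.1, 407 and 575 CPM in F1, F2, F3, F4 and F6. All males were above all females, M2 by a small margin. Males averaged 1357 ± 566 CPM (SD, n = 4) and females 439 ± 104 CPM (SD, n = 5), which is a log2 ratio of 1.63. Without the 4 called *sult* genes the sums were 259 to 299 CPM in males and 154 to 368 CPM in females, which overlap, and the log2 ratio was 0.33. Sums of the *ugt* genes were 267 to 412 CPM in males and 293 to 629 CPM in females, so the sexes overlapped. The log2 ratio of the *ugt* sums was -0.21, and 0.14 without *ugt8* and *ugt5g1*. The share of *ugt5g1* in the *ugt* sum, which depends on gene length too, was 1.85% to 5.16% in males and 10.7% to 44.0% in females. These sums describe the families and were not tested. The called genes left out were chosen by their sex difference in the same data. The sums without them therefore do not show that the other members lack a difference.

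**Figure D3:**
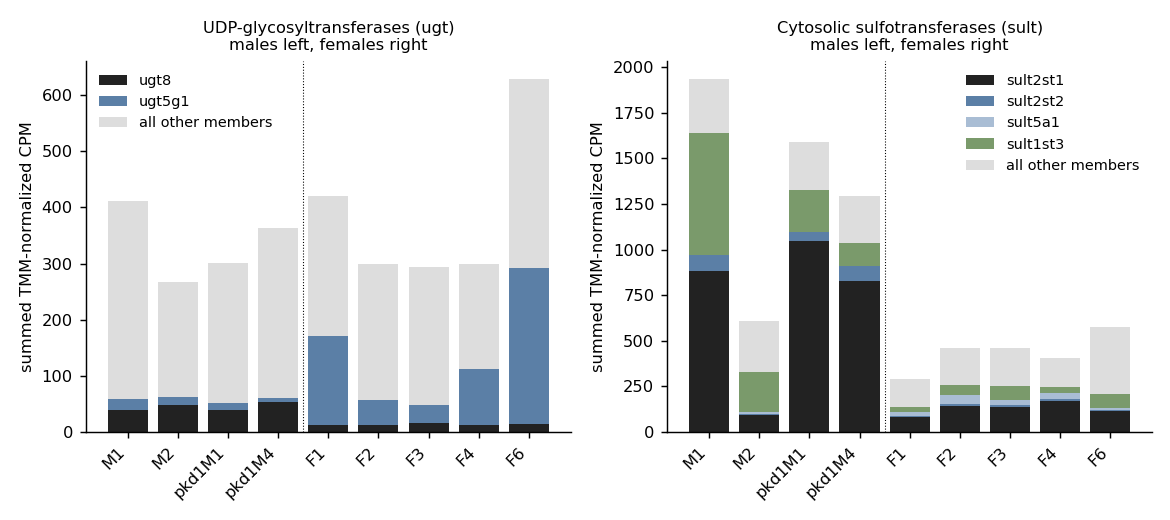
Summed TMM-normalized CPM of the *ugt* genes (left) and *sult* genes (right) in each library, with the called genes in dark colours and all other members in light grey. Male *sult* sums reach 1937 CPM in M1 and 606 CPM in M2, against at most 575 CPM in females, and the grey parts overlap between sexes.

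Another 2 members had an adjusted p-value under 0.05 but a log2 fold change within the limit. The gene *sult1st6* (ENSDARG00000006811), a sulfotransferase gene on chromosome 12 from 15197857 to 15205087, had 126, 70.6, 86.1 and 95.5 CPM in M1, M2, pkd1M1 and pkd1M4. Females had 29.4, 31.2, 31.3, 34.3 and 70.3 CPM in F1, F2, F3, F4 and F6. Only F6 came near the males. Its log2 fold change was 1.27 (edgeR adjusted p = 0.0176), and 1.58 without F6 (edgeR adjusted p = 0.00106), which is past both thresholds. The gene *ugt1b1* (ENSDARG00000097491) had 8.76, 10.3, 6.54 and 5.44 CPM in M1, M2, pkd1M1 and pkd1M4. Females had 17.4, 19.4, 21.3, 16.8 and 21.5 CPM in F1, F2, F3, F4 and F6, all above every male. Here the log2 fold change was -1.32 (edgeR adjusted p = 0.00690).

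The 7 *ugt1b* genes overlap on chromosome 11 from 30295582 to 30330015, and 5 of them, *ugt1b1*, *ugt1b2*, *ugt1b3*, *ugt1b4* and *ugt1b7*, are listed with the same end at 30329055. In *ugt1b5* males had 138, 34.0, 85.5 and 126 CPM in M1, M2, pkd1M1 and pkd1M4. Females had 56.2, 77.9, 74.8, 34.2 and 82.8 CPM in F1, F2, F3, F4 and F6. The sexes overlapped, and the log2 fold change was 0.56 beside -1.32 for *ugt1b1* of the same locus. In *ugt1b4* pkd1M1 had 4.62 CPM and the other males at most 0.0867 CPM, beside 0.564 to 3.46 CPM in females. Without pkd1M1 this gene was called higher in females (log2 fold change -5.13, edgeR adjusted p = 0.0464). Summed before the fit, a choice made after seeing the data, the 7 genes had 45.1 to 148 CPM in males and 55.8 to 115 CPM in females. The log2 fold change of the locus was 0.25 (standard error 0.33, edgeR adjusted p = 0.699). Since reads of a shared region fit several of these genes, the split between *ugt1b1* and *ugt1b5* is less certain than the sum.

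On chromosome 1, 5 *ugt5b* genes overlap in the same manner from 9626277 to 9652725. Single members had log2 fold changes from -0.27 for the *ugt5b2* row ENSDARG00000101495 to 0.13 for *ugt5b4*. The *ugt5b2* row had 20.1, 13.6, 10.1 and 19.8 CPM in the males, ordered as above, and 21.2, 19.6, 19.9, 13.7 and 21.7 CPM in the females. As 1 feature they had 19.7 to 51.9 CPM in males and 26.5 to 46.7 CPM in females, and the log2 fold change was -0.13 (standard error 0.28). The sexes overlapped in each case.

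Of the other members with many counts, *ugt1a1*, on chromosome 9 from 9969987 to 10003782 and of the same family as the mammalian bilirubin enzyme, had 38.2, 32.0, 20.9 and 25.6 CPM in the males, in the same order. The females had 27.4, 28.8, 33.1, 20.6 and 46.9 CPM of *ugt1a1*. Its log2 fold change was -0.10 with a standard error of 0.26, and the sign changed when pkd1M1 or F6 was left out. For *ugt5f1*, on chromosome 18, males had 64.8, 42.6, 70.5 and 53.0 CPM and females 51.6, 28.5, 38.8, 36.4 and 85.2 CPM. For *sult6b1*, on chromosome 11, males had 61.3, 40.7, 37.5 and 32.9 CPM and females 17.8, 29.0, 20.1, 38.4 and 32.4 CPM. It was not called, with a log2 fold change of 0.65 (edgeR adjusted p = 0.152). For *sult1st4*, on chromosome 8 from 53171002 to 53179683, males had 52.2, 73.2, 51.7 and 56.6 CPM and females 55.4, 83.5, 90.8, 26.1 and 154 CPM. In each of these genes the sexes overlapped.

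**Figure D4:**
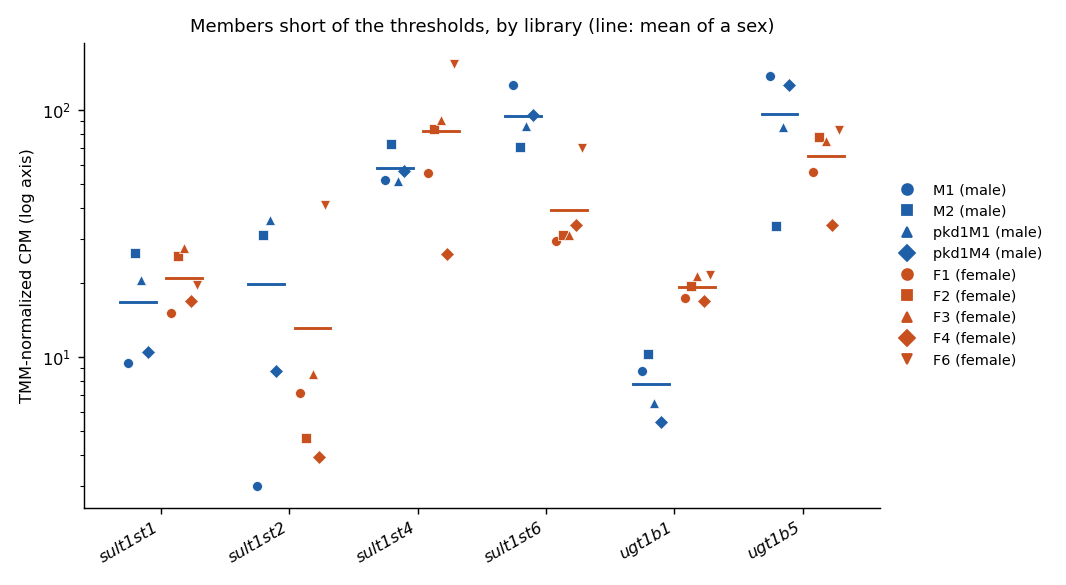
TMM-normalized CPM on a log axis of 6 genes that were not called, by library, with lines at the mean of each sex. The sexes are separate in *ugt1b1* and overlap in *sult1st1*, *sult1st2*, *sult1st4* and *ugt1b5*. In *sult1st6* they nearly touch, with M2 at 70.6 CPM and F6 at 70.3 CPM.

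The remaining 20 tested members had means of 0.769 to 13.9 CPM and log2 fold changes from -1.66 to 0.99, with 11 above and 9 below 0. The smallest adjusted p-value among them was 0.0918 (edgeR), that of the *ugt2a7* row ENSDARG00000091624 on chromosome 5, which had 12.7 to 24.7 CPM in males and 6.88 to 12.1 CPM in females without overlap. Over all tested members 7 genes, or 19.4%, had no overlap between sexes, beside 16.5% of all genes tested. The gene *sult4a1*, whose mammalian counterpart is found mainly in brain, had at most 1.80 CPM in any library. For *ugt5c2* on chromosome 18 the values were 0.0333 to 3.13 CPM in males and 1.21 to 4.60 CPM in females, with a standard error of 1.01 on a log2 fold change of -1.66. Of the 15 tested members under 10 CPM on average, edgeR called none, with adjusted p-values from 0.339 up.

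The filter removed 15 members, 11 *ugt* and 4 *sult*, whose counts never exceeded 48 in any library. Among these were 4 of 5 genes of the *sult3* group on chromosome 22 from 15308526 to 15342165, and all 3 *ugt5a* genes on chromosome 25. The gene *sult3st5* had a count of 0 in all 9 libraries. The largest count of a removed member, 48, was in pkd1M1 for *ugt5a4*, a pseudogene. Of the 51 members, 32 had counts in every library. In all, 36 of the 51 members lay in 9 groups of neighbours with under 200 kb between them and 15 lay alone. Only the *sult2st1* and *sult2st2* group had more than 1 called member.

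The genes around these enzymes were read from 7 lists holding 120 genes, of which 112 were matched and 99 tested. Of these, 9 were called higher in males and 2 higher in females, 11.1% of those tested beside 6.54% of all genes. Their median log2 fold change was 0.03. For sulfation, *papss2a*, on chromosome 17, encodes a synthase of the sulfate donor PAPS. It had 37.5, 46.4, 39.4 and 51.6 CPM in M1, M2, pkd1M1 and pkd1M4. Females had 12.7, 12.1, 6.81, 17.8 and 10.3 CPM in F1, F2, F3, F4 and F6, all below the males. The log2 fold change was 1.87 (standard error 0.26, edgeR adjusted p = 0.00157). M2, low in *sult2st1*, was not low in *papss2a*.

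The other PAPS synthase genes did not pass. For *papss2b* the range was 50.3 to 111 CPM in males and 78.6 to 159 CPM in females (log2 fold change -0.56, edgeR adjusted p = 0.193), and for *papss1* it was 2.00 to 5.77 CPM and 2.23 to 9.23 CPM. The sulfate transporter gene *slc26a2* had 12.8 to 38.2 CPM in males and 3.66 to 6.61 CPM in females, a log2 fold change of 1.99 (edgeR adjusted p = 0.00490). In all, 2 of 11 tested genes of sulfate and PAPS supply were called, both higher in males. Of 10 genes that supply UDP-glucuronic acid, none was called by edgeR or DESeq2, and 1 was higher in males at an unadjusted p under 0.05 in each. Among them *ugdh*, which makes UDP-glucuronic acid, had 18.8 to 26.3 CPM in males and 15.0 to 23.0 CPM in females. The difference on the log2 scale was 0.26 (standard error 0.20), and that of the sugar nucleotide transporter gene *slc35d1b* was 0.92 with an adjusted p of 0.0428 (edgeR).

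The export pump genes *abcc2* and *abcc4* were called higher in males, and no other of the 10 tested exporter genes was called. For *abcc4* the males had 112, 78.0, 191 and 75.2 CPM in M1, M2, pkd1M1 and pkd1M4, and females had 13.7 to 24.0 CPM. The log2 fold change was 2.68 (edgeR adjusted p = 0.0006). Of 19 tested regulators of drug metabolism genes, 2 were called, both higher in males. The aryl hydrocarbon receptor gene *ahr1a* had 17.3 to 64.2 CPM in males and 0.251 to 1.49 CPM in females. The gene *keap1a*, whose product restrains the antioxidant regulator Nrf2, had 86.7 to 200.4 CPM in males and 23.3 to 32.1 CPM in females.

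Among genes that remove sulfate or glucuronic acid, *arsj* and *arsia*, of the arylsulfatase family, were called higher in males and *sulf1*, an extracellular sulfatase of heparan sulfate, higher in females. The call of *sulf1* was lost without M1, M2, pkd1M1 or F2 (edgeR adjusted p from 0.0599 to 0.0633). That of *arsj* was lost without M2, pkd1M1, pkd1M4, F1, F3 or F4, and that of *arsia* without M1, pkd1M1, pkd1M4, F1, F2 or F3. The lysosomal glucuronidase gene *gusb* had 35.3 to 82.2 CPM in males and 49.4 to 91.9 CPM in females, and the steroid sulfatase gene *sts* had 9.10 to 19.5 CPM and 11.6 to 40.1 CPM, each with overlap. Beside *ugt8*, the gene of glucosylceramide synthase, *ugcg*, was called higher in females. It had 5.85, 8.27, 3.63 and 2.23 CPM in M1, M2, pkd1M1 and pkd1M4, and females had 16.9, 16.3, 19.5, 18.3 and 9.22 CPM in F1, F2, F3, F4 and F6. The log2 fold change was -1.68 (edgeR adjusted p = 0.0204). Without pkd1M1 it was -1.56 (edgeR adjusted p = 0.0618) and without pkd1M4 -1.44, and *ugcg* was not called in either. The genes *gal3st1a*, *gal3st1b*, *galca* and *galcb*, which sulfate or break down the product of the *ugt8* enzyme, were not called with all libraries. Counts of *gal3st1b*, before scaling, were 220 to 588 in males and 114 to 163 in F1 to F4, with 559 in F6. Of the 11 tested genes listed as partners of *ugt8*, *ugcg* among them, 3 were higher in males at an unadjusted p under 0.05 (edgeR). Without F3, F6 or M2 edgeR called 1 of the 11 higher in males. Of 27 tested sulfotransferases of the Golgi, which act on sugar chains and proteins, only *ndst2b* was called, higher in males. With M1 and M2 as the only males *arsia*, *arsj*, *ndst2b* and *ugcg* were not called. In that fit, and with the pkd1 term, edgeR called 1 of the Golgi genes higher in females and 0 higher in males.

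**Figure D5:**
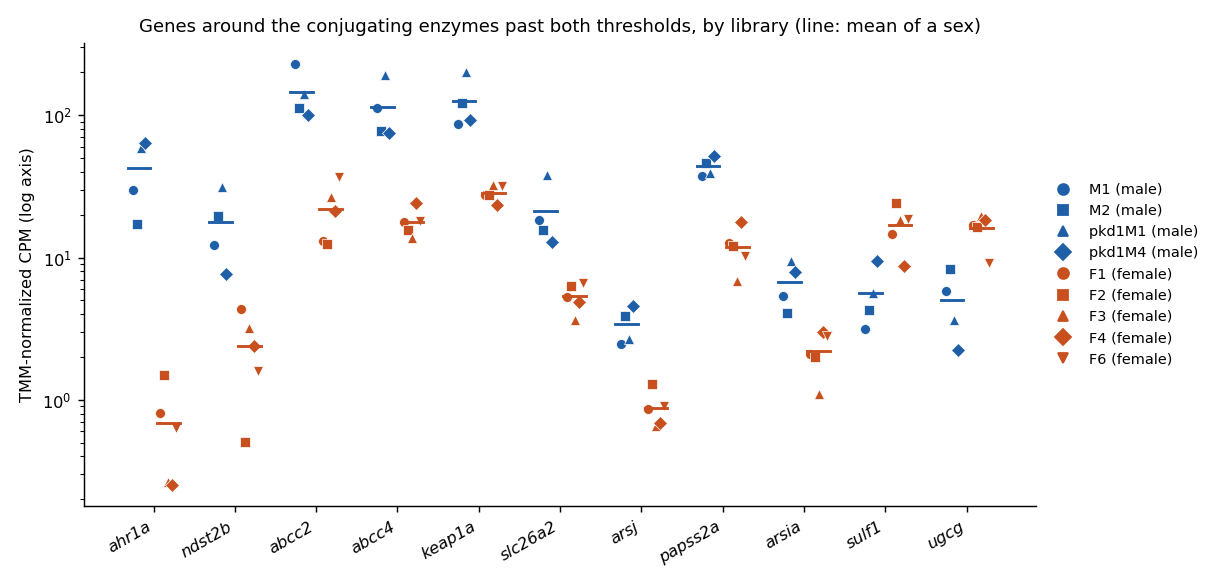
TMM-normalized CPM on a log axis of the 11 called genes around the conjugating enzymes, by library, with lines at the mean of each sex. The first 9 genes are higher in males with no overlap, *sulf1* overlaps between sexes, and in *ugcg* all females lie above the males.

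The distal tubule markers (5 of 6) and the intestine markers, mostly *vil1*, moved with sex in the direction of the genes higher in males. So did 8 of 10 proximal tubule, 7 of 8 interrenal and 10 of 13 tested liver markers, with sums that overlapped between the sexes. The median log2 fold change was 0.85 over the proximal tubule markers and 1.52 over the interrenal markers. The myeloid markers moved with those higher in females, as did all 9 tested lymphoid and all 9 tested oocyte markers. Calls of the proximal tubule, distal tubule, intestine, liver, lymphoid and oocyte markers depended on the fit, as given above. For the myeloid markers edgeR called 2 higher in females with any single library left out. It called none of them with M1 and M2 as the only males or with the pkd1 term (4 at an unadjusted p under 0.05 in each). The part of any of these markers in the results above was not tested. Liver markers summed to 229.8, 179.5, 245 and 1975 CPM in M1, M2, pkd1M1 and pkd1M4. The *sult* sums of these males were 1937, 606, 1591 and 1296 CPM. In F1, F2, F3, F4 and F6 liver markers summed to 874, 1321, 521, 328 and 419.5 CPM. The *sult* sums of these females were 288, 463, 460.1, 407 and 575 CPM.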

How the data were processed

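RNA of male and female zebrafish kidneys was extracted with TRIZOL, made into libraries and sequenced from both ends. According to the methods, the authors assigned reads to transcripts with Kallisto, in which a read that fits several transcripts is shared out between them, and Tximport then gave gene values, TPM brought to the size of the library. The deposited values are thus estimated counts per gene, all whole numbers. The methods name GRCz11, and the submitters' processing notes list GRCz10. Coordinates are given as in the table, which ends chromosome 4 at 78068331 or beyond. Of the 51 member identifiers, 48 were in a table of gene names, 45 with the same symbol.

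Genes were filtered with filterByExpr, scaled with TMM and tested by quasi-likelihood (edgeR 4.0.16, R 4.3.3). Benjamini-Hochberg adjustment covered all 22148 genes tested. Standard errors were the log2 fold change divided by the root of the F statistic. Alternatives were RLE, DESeq2 1.42.0, other filters, left-out libraries, the males named without pkd1, a term for that name, a replicate block and no fold limit. Summing overlapping genes was added after seeing the data. The test was tried on simulated data. The members and lists were chosen with earlier results of these data known. Values are given in every library for called members and for the 10 of highest mean CPM among the rest; of the listed genes, those called and the genes of the main donor and removal enzymes are named. *slc35d1b*, *ugt1b4*, *ugt2a7*, *ugt5c2*, *sult2st3* and *sult4a1* were added after their values were seen. Figures were drawn with matplotlib 3.10.9. Sequences were not used here.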

Additional observations from a re-analysis of the deposited data

Results flagged for a closer look

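In *sult1st6* the level of F6, 70.3 CPM, stood apart from the other females, which had 29.4 to 34.3 CPM. In *sult1st2* F6 had 41.2 CPM, again apart from the other females at 3.94 to 8.50 CPM. In the *ugt5b2* row ENSDARG00000101495, F4 was low at 13.7 CPM. These were the 3 outlying values among 68 groups of libraries tested with Dixon's ratio, where chance gives about 1 in 20.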

How the results depend on the processing

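The number of members called higher in males was 4, and 4 to 5 in the fits lacking 1 library. The number higher in females was 2, and 2 to 3 in those fits. With M1 and M2 as the only males, and likewise with pkd1 in the library name as a covariate, 2 were higher in males and 0 in females, where edgeR gave 5 and 4 higher in females at an unadjusted p under 0.05 (DESeq2 was not run in these fits). In those fits *sult2st1*, *sult2st2*, *sult5a1* and *ugt5g1* kept their direction but not their call. Calls over all genes fell too, from 771 higher in males and 677 in females of 22148 tested with all libraries. They were 375 and 260 of 23882 with M1 and M2 as the only males, and 381 and 209 of 24556 with the pkd1 term. Replicate numbers shared by both sexes were carried by M1, M2, F1 and F2, and their deviations from the group means did not pair them (correlations of 0.03 and -0.036 across genes). With the replicate block, which leaves few residual degrees of freedom in these 4 libraries, 1 member was higher in males and 2 in females. Without the block the same 4 libraries gave 1 and 0, with 3 higher in females at an unadjusted p under 0.05. The member higher in males was *ugt8* in both. Over all 22170 genes tested there, 478 and 381 were called with the block and 237 and 118 without it. *sult2st1* had a log2 fold change of 1.40 with the block.

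Of the listed genes, 9 were higher in males and 2 in females. These counts ranged from 7 to 10 and from 0 to 2 with a library left out, with 0 in females without pkd1M1 (10 at an unadjusted p under 0.05) and 1 without M1, M2, pkd1M4 or F2. The term for pkd1 left 5 higher in males and 2 in females. The replicate block left 5 and 1, and the 4 libraries without it 4 and 0 (5 at an unadjusted p under 0.05). With no fold change limit the counts were 14 and 4. The log2 ratio of the summed *sult* level ranged from 1.41 to 1.87 with a library left out, and that of the *ugt* level from -0.32 to 0.03. With column totals in place of TMM the median log2 ratio of all genes was -0.20 in place of -0.03, and 4 of 36 tested members changed sign, none of them called. The *ugt1a1* log2 fold change ranged from -0.26 to 0.086 with a library left out and turned positive, to 0.02 without pkd1M1, 0.086 without F6, 0.16 with M1 and M2 as the only males or with the pkd1 term, 0.31 with the replicate block and 0.32 in those libraries without it. Among the 16 members that were called or had the most counts, 262 of 285 alternative values kept direction and side of the thresholds, 16 lost the call, 1 gained it and 6 changed sign, all 6 of them those of *ugt1a1*. Outside these 16, *ugt1b4* gained a call without pkd1M1. Of the 16 members, 10 were not called with all libraries and so could not lose a call. Among the 18 alternative fits the call held in 14 for *sult2st1* and *sult2st2* and in 15 for *sult5a1* and *ugt5g1*. It held in 16 for *sult1st3* and in all 18 for *ugt8*. The cause of these changes was not tested. Standard errors of the tested members ran from 0.18 to 1.51, and whether depth sets them was not tested.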

Other observations

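Library F6 was the highest female in 20 of the 36 tested members and the lowest in 1. It also had the highest summed proximal tubule markers of the females, 3587 CPM beside 1185 to 1815 CPM in the others, and the highest summed distal tubule markers, 744 CPM beside 300.3 to 424 CPM. Of the females, F6 was also the highest in the summed intestine, exocrine pancreas, interrenal and erythroid markers. It was not the highest in the liver, myeloid, lymphoid, oocyte or testis markers. Whether the share of RNA from any of these tissues bears on the levels of the member genes in F6 was not tested. Among males no library was highest in more than 13 members, the number for M1.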
